A study of Caenorhabditis elegans with 2 samples.

Results

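The genes described here are 57 genes of the C. elegans cell division machinery, taken from a list of names drawn up by function, with earlier results of these data known. No measured value enters the rule. They encode cyclins and their kinases, the spindle checkpoint, the kinetochore and mitotic chromosome, the anaphase-promoting complex (APC), and the centrosome and spindle. All 57 were found among the 19973 protein-coding genes of the WBcel235 annotation. Occupancy of their promoters by LIN-15B, a nuclear protein of the synMuv B group, was read from chromatin immunoprecipitation followed by sequencing (ChIP-seq). The animals were whole L3 larvae, mixed in sex and of unknown age, of strain OP184 with the genotype unc-119(tm4063) III; wgIs184. They carry lin-15B fused to eGFP on the wgIs184 insertion. There were 2 biological replicates of this 1 group and no untagged or untreated group, so no condition is compared. Both replicates share the unc-119 mutation and the tagged protein, and the labels do not say whether untagged LIN-15B was also present. The antibody is labelled by lin-15B itself, while the description names the eGFP fusion as the target. Whole larvae hold many cell types, so a peak cannot be assigned to dividing or to resting cells.

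Cyclins switch on cyclin-dependent kinases (CDKs), whose activity drives a cell into replication and then into mitosis. At mitosis the kinetochore, built on centromeric chromatin, joins each chromosome to spindle microtubules that grow from centrosomes, and the spindle checkpoint holds back the APC until all chromosomes are attached. In L3 larvae most somatic cells have stopped dividing, while the germ line and some lineages still divide. LIN-15B is known for a role in vulval development and in keeping germline genes off in the soma, and other synMuv B proteins form the DREAM complex, which represses cell cycle genes in many animals.

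The sequences around the peaks that lead each of the 5 functional groups are shown first, since each one is the DNA on which the occupancy below rests. They are 101 bases long, with the peak summit in the middle, and come from the bound genes with the 2 highest signals in each group among those on chromosomes II to V and X. Each is written 5′ to 3′ on the strand of the named gene, read from the RefSeq copy of WBcel235, the assembly also called ce11. Capitals mark the GAGA repeat (GAGAGA), the CG repeat (GCGCGC), the CHR element (TTTGAA), a GC box (GGGCGG), or E2F-like letters (CGCGAA or else GGCGGGA), on either strand. The windows are chrIII:5679080-5679180 for ska-3 (minus strand), chrV:1868751-1868851 for knl-3 (plus strand), chrIV:2641113-2641213 for mdf-2 (minus strand), chrV:9544368-9544468 for mdf-1 (minus strand), chrII:5649585-5649685 for zyg-1 (plus strand), chrIII:13771311-13771411 for cyk-4 (minus strand), chrII:8162394-8162494 for emb-27 (minus strand), chrII:5501416-5501516 for fzy-1 (plus strand), chrIII:9747317-9747417 for cdk-1 (plus strand) and chrX:13519304-13519404 for cdk-4 (minus strand).
ska-3: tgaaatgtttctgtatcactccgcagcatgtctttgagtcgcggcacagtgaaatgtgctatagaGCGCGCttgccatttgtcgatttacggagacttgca
knl-3: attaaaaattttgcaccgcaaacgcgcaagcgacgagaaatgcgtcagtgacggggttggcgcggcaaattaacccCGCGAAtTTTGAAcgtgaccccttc
mdf-2: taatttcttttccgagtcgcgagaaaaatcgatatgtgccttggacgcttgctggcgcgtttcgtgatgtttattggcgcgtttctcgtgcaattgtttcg
mdf-1: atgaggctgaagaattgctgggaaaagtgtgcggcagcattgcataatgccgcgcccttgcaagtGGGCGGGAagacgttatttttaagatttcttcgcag
zyg-1: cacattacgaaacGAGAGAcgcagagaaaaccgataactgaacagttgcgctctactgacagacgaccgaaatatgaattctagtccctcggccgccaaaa
cyk-4: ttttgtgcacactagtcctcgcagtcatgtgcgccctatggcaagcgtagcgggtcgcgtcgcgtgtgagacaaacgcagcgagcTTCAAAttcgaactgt
emb-27: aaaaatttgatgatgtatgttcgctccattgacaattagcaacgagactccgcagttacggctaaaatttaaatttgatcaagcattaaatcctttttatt
fzy-1: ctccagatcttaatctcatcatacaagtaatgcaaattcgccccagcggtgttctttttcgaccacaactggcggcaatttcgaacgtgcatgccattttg
cdk-1: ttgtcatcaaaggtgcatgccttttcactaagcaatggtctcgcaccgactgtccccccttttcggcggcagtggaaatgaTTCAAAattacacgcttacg
cdk-4: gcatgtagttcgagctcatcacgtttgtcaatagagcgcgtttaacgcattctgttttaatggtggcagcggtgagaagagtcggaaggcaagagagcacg

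Of these 10 windows, 6 held at least 1 of the motifs, against 55.8% of 2098 such windows at all promoter summits. The GCGCGC letters stood in the ska-3 window, the CHR element in those of knl-3, cyk-4 and cdk-1, and GAGAGA in that of zyg-1. The knl-3 window also held CGCGAA, and in the mdf-1 window the GC box and GGCGGGA overlap. No match was found in the windows of mdf-2, emb-27, fzy-1 and cdk-4, which says only that these letters are not in them.

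LIN-15B occupied the promoters of most of these genes. A gene was called bound if the summit of a peak in the list thresholded by the irreproducible discovery rate (IDR) lay from 500 bp upstream to 200 bp downstream of an annotated 5' end. By this rule 35 of the 57 genes (61.4%) were bound, against 2683 of 19973 protein-coding genes (13.4%). The exact Clopper-Pearson 95% interval is 47.6 to 74% for the listed genes and 13 to 13.9% for all genes, and covers counting error only. The counts differed by group. All 15 genes of the kinetochore and chromosome group were bound (100%, interval 78.2 to 100%), as were 5 of 7 checkpoint genes (71.4%, 29 to 96.3%) and 6 of 9 centrosome and spindle genes (66.7%, 29.9 to 92.5%). The APC had 3 of 8 genes bound (37.5%, 8.52 to 75.5%) and the cyclins and kinases 6 of 18 (33.3%, 13.3 to 59%). No test between groups was made, because the groups are small fixed lists chosen with earlier results of these data known.

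**Figure D1:**
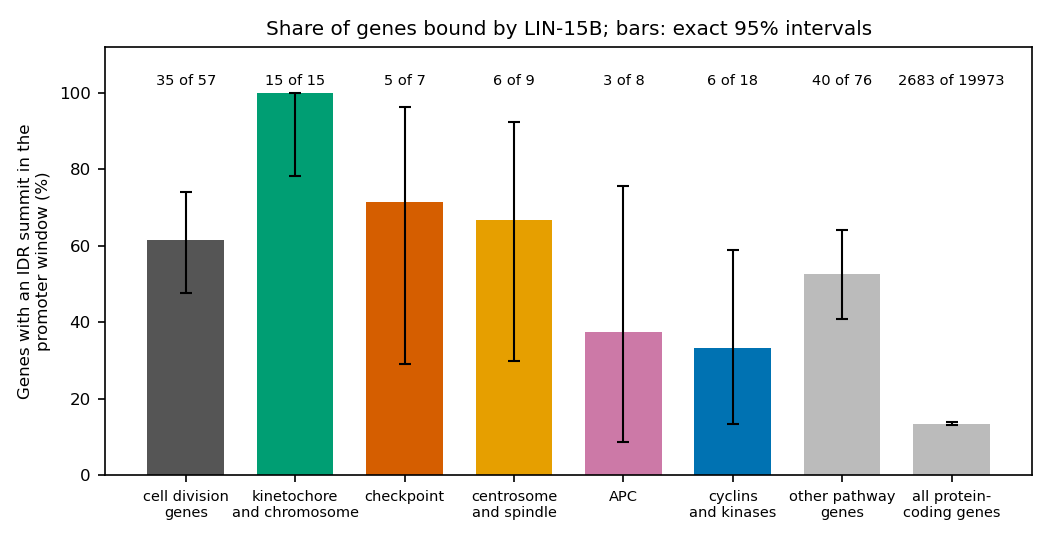
The share of genes bound (percent, y axis) in all 57 cell division genes, in their 5 groups, in 76 other genes of the same pathways and in all 19973 protein-coding genes, with exact 95% intervals as error bars. The kinetochore and chromosome group stands at 15 of 15 and the cyclins and kinases at 6 of 18, against 13.4% of all genes.

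The bound genes did not stand out by strength of signal. The signal of a peak is the deposited value of the authors, on a scale that is not given. Over the 35 bound genes it ran from 30.1 to 961 with a median of 71.3, against a median of 70.5 over all 2683 bound genes. The middle of the distribution was also alike, with quartiles of 46.4 and 133 for the cell division genes, against 41.3 and 137 for all bound genes. Only 1 of the 35 genes (2.86%) had a peak among the 100 highest of the 3331 in the IDR list, against 5.14% of all bound genes. No 2 of the 35 genes had the same peak. The 2683 bound genes in all had 2059 distinct peaks. That full set holds every gene that shares a peak, so its count is not comparable with that of a short list. Many of the 35 peaks also lay in the window of a gene outside the list. None of the 35 genes had a second summit in its window, against only 46 of all 2683 bound genes.

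All 9 listed genes of the centromere, the KMN network and the SKA complex were bound, from centromeric chromatin to the microtubule interface. Of all genes, 13.4% were bound. At the centromere, hcp-3 encodes the histone variant CENP-A, hcp-4 encodes CENP-C and knl-2 a factor needed to load CENP-A. Their peaks had signals of 41.5, 51.2 and 52.3 in the IDR list. In replicates 1 and 2 the hcp-3 peak had signals of 15.2 and 29.6, that of hcp-4 had 26.1 and 24 and that of knl-2 had 23.5 and 28.5. The replicate lists have their own scale, so these values are set beside each other and not beside the pooled signal. The knl-2 summit lay at +26 bp, inside the gene, and was the only one of the 35 downstream of the nearest 5' end of its gene. None of these 3 peaks lay in the window of another gene.

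The microtubule-binding KMN network had some of the higher signals. The peak of knl-3, a subunit of its Mis12 part, had a signal of 315 (chrV:1868667-1868920; 164 in replicate 1 and 149.9 in replicate 2). The peak of ndc-80, the subunit that grips microtubules, had 239 (chrIV:10085772-10086011; 97.6 and 139 in the replicates). The scaffold gene knl-1 had 81.1 (29.5 and 50.3 in the replicates) and him-10, the partner of NDC-80 known as Nuf2 in other species, had 30.1 (13.1 and 17.4), the lowest of all 35. So the 4 listed subunits of 1 network spanned signals from 30.1 to 315. Of further KMN genes outside the list, mis-12 (signal 23.8), kbp-1, kbp-3, kbp-4 (568) and kbp-5 were bound, while kbp-2 was not. The knl-3 summit lay at -412 bp, inside the neighbouring gene T10B5.3 and nearer to a 5' end of that gene. The him-10 summit lay at -124 bp and at +24 bp of polq-1, again nearer to the neighbour.

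The SKA complex, which helps kinetochores hold on to microtubule ends, had the peaks with the 2 highest signals among the 35. The ska-3 peak (chrIII:5678973-5679283) had a signal of 961 and rank 7 in the IDR list, and it ranked 7 in each replicate too, with signals of 440.4 and 521. Its summit lay at -125 bp of ska-3, in the gap of 292 bp between ska-3 and the ribosomal protein gene rps-12, which runs the other way. The ska-1 peak had a signal of 336 and rank 123 (124 and 212 in the replicates), with its summit at -351 bp of ska-1 but at only -36 bp of its neighbour Y106G6H.16. Both of these peaks thus lie in shared promoters and cannot be given to 1 gene.

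The 6 listed genes for condensin and the chromosomal passenger complex were all bound, against 13.4% of all genes. Their signals ran from 33.3 to 159. Condensin compacts chromosomes, and its subunit genes hcp-6, mix-1 and smc-4 had signals of 126, 62.1 and 33.3. The hcp-6 peak had 64.2 and 61 in replicates 1 and 2, the mix-1 peak 23.7 and 37, and the smc-4 peak 18.6 and 18.5. MIX-1 also serves in X chromosome dosage compensation. Of other condensin genes outside the list, capg-1, capg-2 and dpy-26 were bound, while kle-2 and dpy-28 were not. The chromosomal passenger genes bir-1 (the Survivin homologue), csc-1 and icp-1 (the INCENP homologue), which place and activate Aurora B, had 159, 66.7 and 64.8. Replicate signals were 52.4 and 108 at bir-1, 34.1 and 29.6 at csc-1 and 32.9 and 33.1 at icp-1. Summits of the 6 listed genes lay from -180 bp at csc-1 to -31 bp at mix-1.

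All 4 listed genes of the spindle checkpoint itself were bound, against 13.4% of all genes. The highest was mdf-2, the Mad2 homologue, with a signal of 186 (chrIV:2641057-2641280; 85.5 and 98.8 in replicates 1 and 2) and a summit at -38 bp. Its partner mdf-1 had 90.1 (47.4 and 42.2), the kinase gene bub-1 had 82.3 (44.1 and 36.3) and bub-3, whose product binds BUB-1, had 37.1 (18.1 and 16.8). At mdf-1, bub-1 and bub-3 replicate 1 had the higher signal, and at mdf-2 replicate 2 did. Replicate 2 was higher in 22 of the 35 peaks and in 1532 of the 2059 peaks of all bound genes.

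The RZZ complex, which brings checkpoint proteins and dynein to kinetochores, was divided. Of its 3 listed genes only czw-1 was bound, against 13.4% of all genes, and the list is too short to be told apart from that background. The czw-1 peak had a signal of 81.7 (42.4 and 41.1 in replicates 1 and 2). The largest subunit gene, rod-1, had no IDR summit within 7941 bp of its 5' end. Its window held a weaker entry of the pooled list, with a signal of 16 and rank 4365, below the lowest IDR signal of 22.7. The window of zwl-1 held no peak in any list, but a strong IDR peak (signal 233; 106 and 126 in the replicates) lay at -574 bp, in the window of the neighbouring gene dot-1.1.

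**Figure D2:**
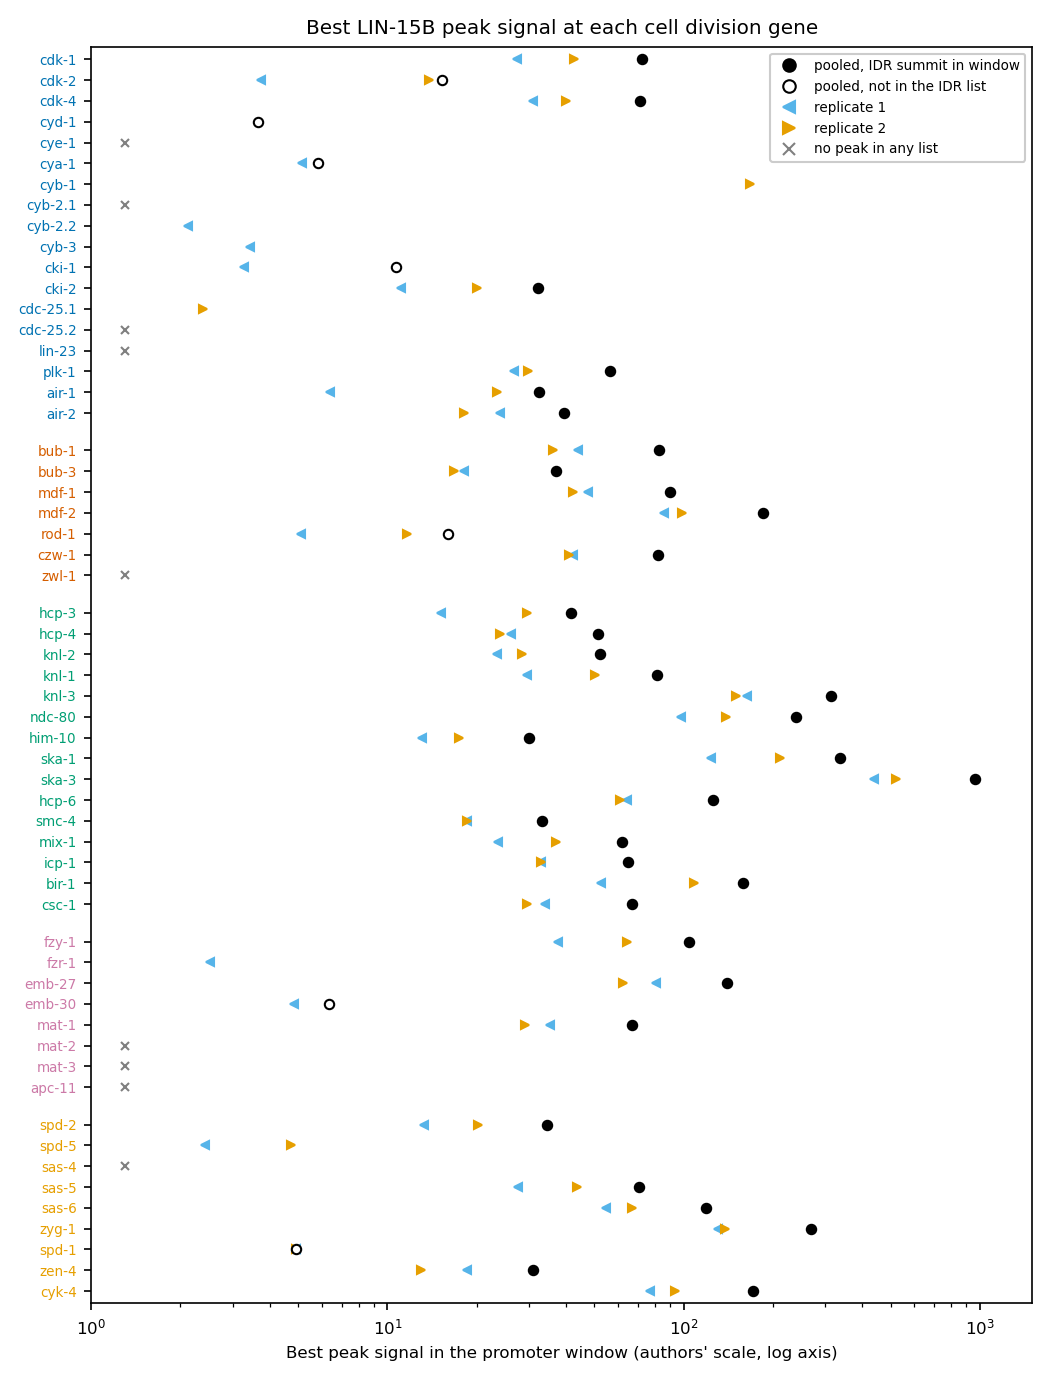
Best peak signal in the promoter window (x axis, log scale, the authors' units) of each of the 57 genes, in the pooled list (circles, filled where the IDR list has a summit in the window) and in each replicate (triangles); crosses mark 9 genes with no peak in any list. All 15 kinetochore and chromosome genes are filled, and none of the 7 cyclins is.

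The cyclin genes were the largest set with no binding. None of the 7 (cyd-1, cye-1, cya-1, cyb-1, cyb-2.1, cyb-2.2 and cyb-3) had an IDR summit in the window, where a count of 0 allows up to 42.9%, against 13.4% of all genes. A list of 7 genes is too short for a count of 0 to be told apart from that background. Of the 3 genes for their kinases, 2 were bound, against the same 13.4%, and this list is shorter still. The mitotic kinase gene cdk-1 had a peak with a signal of 72.1 at -105 bp (27.4 and 42.8 in replicates 1 and 2). The gene for the cyclin D partner, cdk-4, had 71.3 at -443 bp (30.9 and 40.0 in the replicates). The gene for the cyclin E partner, cdk-2, had only a pooled-list entry with a signal of 15.3, and 3.73 and 13.8 in the replicates.

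Of the 7 cyclins, 3 had an IDR summit just beyond the window. The cyb-1 gene encodes a B-type cyclin of mitosis, and an IDR peak with a signal of 302 (134 and 168 in replicates 1 and 2) had its summit at -503 bp. In replicate 2 alone the summit fell inside the window. For cye-1, cyclin E, a peak with a signal of 194 (79.2 and 114 in the replicates) lay at -558 bp. For the B-type cyclin gene cyb-3 a peak with a signal of 44 (20.6 and 22.2) lay at -563 bp. Each of these 3 peaks lay in the window of the next gene upstream, which runs the other way. These genes are orc-5 beside cyb-1, pqn-21 beside cye-1 and T06E6.1 beside cyb-3. The other 4 cyclins had no IDR summit nearby. The nearest lay 17431 bp from cyb-2.2, 19644 bp from cya-1 and 34166 bp from cyb-2.1, all downstream of the 5' end, and at -27036 bp from cyd-1.

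Of the 5 other listed regulators of CDK activity, cki-2 was the 1 gene bound, against 13.4% of all genes, and a list this short cannot be told apart from that background. Both cki genes encode CDK inhibitors and lie next to each other on chromosome II. There cki-2 had a weak peak (signal 32.3; 11.1 and 20.1 in replicates 1 and 2) while cki-1 had only a pooled entry with a signal of 10.7. The phosphatase genes cdc-25.1 and cdc-25.2, whose products switch CDKs on, had neither an IDR nor a pooled peak in the window. The same was true of lin-23, which encodes an F-box protein that marks cell cycle regulators for destruction, although a peak with a signal of 238 lay at -942 bp.

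All 3 listed mitotic kinases outside the CDK family were bound, at low to middling signals, against 13.4% of all genes. The Polo kinase gene plk-1 had 56.4 at -196 bp (26.8 and 29.9 in replicates 1 and 2). The Aurora B gene air-2 had 39.3 at -98 bp (24 and 18.1). The Aurora A gene air-1 had 32.5 at -174 bp, with 6.38 in replicate 1 and 23.4 in replicate 2, a log2 ratio of 1.88 and the widest gap among the 35 peaks. It was also the gene that lost its call when the list of replicate 1 alone was used. Its summit lay at +2 bp of cogc-6, the gene that faces it, so it is nearer to that gene.

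Of the APC, an E3 ubiquitin ligase that ends mitosis, 3 of 8 genes were bound. The interval for this share, 8.52 to 75.5%, includes the 13.4% of all genes. The activator gene fzy-1, the Cdc20 homologue, had a peak with a signal of 104 at -167 bp (37.6 and 64.3 in replicates 1 and 2). This call rested on a downstream 5' end, with the summit inside fzy-1. The call was lost when only the most upstream 5' end of each gene was used. Among subunit genes, emb-27 had 140.2 at -274 bp (80.9 and 62.2) and mat-1 had 67.1 at -442 bp (35.4 and 29.2). Both summits lay nearer to the gene on the other side, at -21 bp of rrf-3, which encodes an RNA-directed RNA polymerase, and at -185 bp of the splicing factor gene prp-31. The second activator gene, fzr-1, and the subunit genes emb-30, mat-2, mat-3 and apc-11 were not bound, and mat-2, mat-3 and apc-11 had no peak in any list.

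Centrosome genes were bound in 4 of 6 cases, against 13.4% of all genes, and the list is short. The highest signal was 269 at zyg-1 (chrII:5649515-5649760; 131 and 138 in replicates 1 and 2), the kinase gene that starts centriole duplication. The centriole assembly genes that act after it gave 119 at sas-6 (54.5 and 66.7 in the replicates) and 70.9 at sas-5 (27.5 and 43.6). In that pathway sas-4 had no peak in any list in its window, and the nearest IDR summit, with a signal of 137, lay at -707 bp. For the pericentriolar material, spd-2 had a weak peak of 34.6 (13.3 and 20.2) and spd-5 had none. The nearest summit to spd-5 lay at +228 bp, beyond the downstream edge, with a signal of 61.9, and was in the window of the nuclear pore gene npp-6.

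The central spindle genes organise the midzone and cytokinesis. The centralspindlin subunit gene cyk-4 had a signal of 171 at -137 bp (chrIII:13771261-13771468; 76.7 and 93.2 in replicates 1 and 2). Its partner in that complex, the kinesin gene zen-4, had only 31 at -244 bp (18.5 and 13). The microtubule bundler gene spd-1 had a pooled entry with a signal of 4.92, and an IDR peak with a signal of 88.5 at -958 bp.

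Summits lay close upstream of the 5' ends. Over the 35 bound genes the median position was -143 bp with quartiles at -212 and -116 bp, against a median of -176 bp with quartiles at -278 and -103 bp for all bound genes. In 25 of the 35 genes (71.4%) the summit lay within 200 bp upstream, against 50.7% of all bound genes. Summits farther upstream were found at 9 genes (25.7%), against 43.8%. Positions are taken from the nearest 5' end of the gene. Just inside the upstream edge were cdk-4 at -443 bp, mat-1 at -442 bp and knl-3 at -412 bp, and just outside it were cyb-1 at -503 bp, cye-1 at -558 bp, cyb-3 at -563 bp and zwl-1 at -574 bp. Trans-splicing is common in C. elegans and removes the start of the primary transcript, so true initiation sites may lie upstream of these annotated ends.

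**Figure D3:**
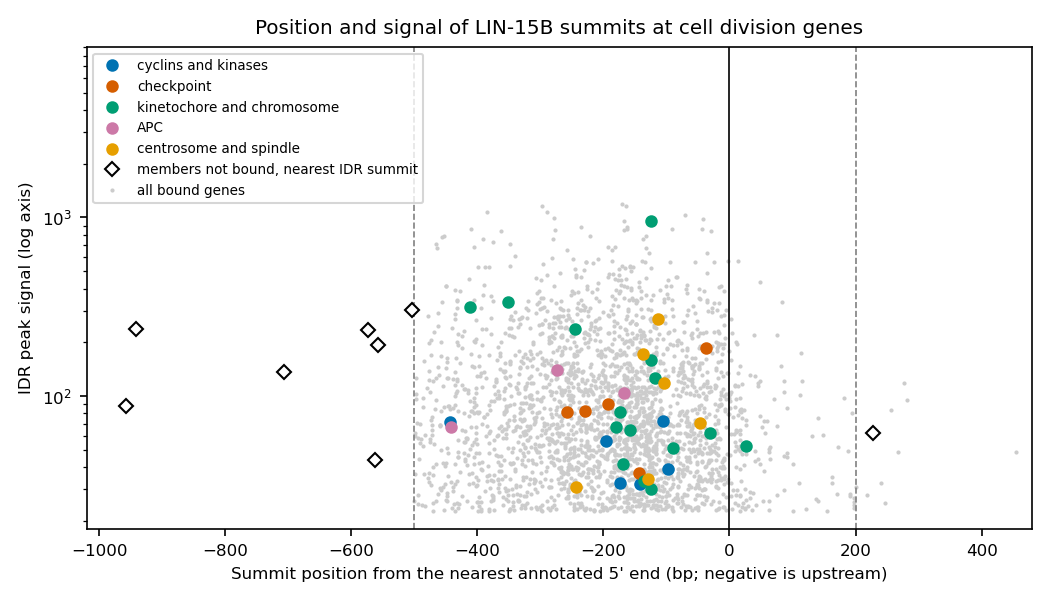
Position of the IDR summit from the nearest annotated 5' end (x axis, bp, negative upstream) against peak signal (y axis, log scale, the authors' units) for the 35 bound cell division genes by group, for 8 unbound ones with a summit within 1000 bp (diamonds) and for all bound genes (grey); dashed lines mark the window edges. Most coloured points lie between -212 and -31 bp, and 4 diamonds lie between -503 and -574 bp.

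The share bound depended on the reach of the window, and the excess over all genes was present at each reach. With 200 bp upstream 26 of 57 genes (45.6%) had a summit, against 7.59% of all genes. With 1000 bp it was 43 of 57 (75.4%), against 16.2%. With 2000 bp, a reach chosen after seeing the data, it was 44 of 57 (77.2%), against 20.1%. With the whole peak interval in place of the summit, 40 of 57 genes were bound, against 14.4% of all genes, the additions being cyb-1, cyb-3, cye-1, spd-5 and zwl-1. With only the 1665 IDR peaks of highest signal it was 24, against 8.53%. Within 1000 bp on either side of a 5' end, 8 of the 22 unbound cell division genes (36.4%) had an IDR summit, against 4.07% of the 17290 unbound genes in all. In the kinetochore and chromosome group 12 of 15 genes were still bound with 200 bp upstream. The exceptions were knl-3, ndc-80 and ska-1, whose summits lie farther upstream. With 1000 bp upstream all 9 centrosome and spindle genes also had a summit, against 16.2% of all genes.

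**Figure D4:**
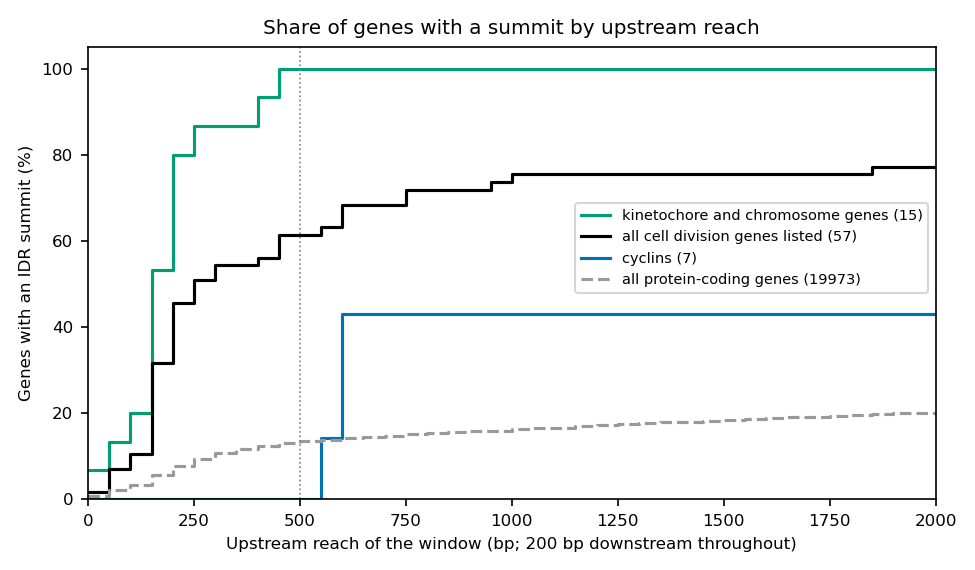
The share of genes with an IDR summit (percent, y axis) as the window is extended upstream (x axis, bp, with 200 bp downstream throughout), for the kinetochore and chromosome genes, all 57 cell division genes, the 7 cyclins and all protein-coding genes. The kinetochore and chromosome genes reach 100% by 450 bp, the cyclins stay at 0 up to 500 bp and stand at 42.9% from 600 bp, and all genes stand at 13.4% at 500 bp.

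Many of the peaks were shared with a gene on the other side. The same peak lay in the window of another protein-coding gene for 25 of the 35 genes (71.4%), against 46.2% of all bound genes. When each summit was given only to the nearest 5' end among the genes whose windows held it, 24 of 57 genes remained bound, against 10.3% of all genes. The 11 genes lost were air-1, bub-3, cdk-4, emb-27, him-10, knl-3, mat-1, sas-6, ska-1, smc-4 and spd-2. In the kinetochore and chromosome group 11 of 15 genes remained. The peaks in no other window were those of cki-2, plk-1, mdf-1, hcp-3, hcp-4, knl-2, knl-1, bir-1, sas-5 and zen-4.

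The arrangement of neighbouring genes also differed in frequency. The next protein-coding gene upstream ran the other way for 45 of the 57 (78.9%), against 46.2% of all protein-coding genes, and genes of this arrangement were bound more often across the genome. Among them 31 of 45 cell division genes (68.9%) were bound, against 20.4% of all genes with such a neighbour. Where the next gene upstream ran the same way, 4 of 12 (33.3%) were bound, against 7.47%. So the arrangement moves with the share bound, and its part in the result was not tested. The listed genes had the higher share in both arrangements, but only 12 of them are in the same-strand set. The listed genes were also chosen with earlier results of these data known.

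In C. elegans, genes that follow each other closely on a strand can be transcribed together from a promoter upstream of the first. A gene on the same strand ended within 500 bp upstream for 6 of the 57 genes, of which mdf-1 and knl-1 were bound (33.3%), against 390 of 4099 such genes in all (9.51%). The 4 that were not are sas-4, emb-30, mat-3 and apc-11, with gaps of 89, 96, 104 and 118 bp. For sas-4, emb-30 and mat-3 the gene before them was itself bound (F10E9.11, pir-2 and nemp-1). The nearest IDR summits had signals of 137 at -707 bp of sas-4, 232 at -2193 bp of emb-30 and 28.3 at -3290 bp of mat-3. Whether these genes are transcribed together was not tested. Across the genome, 873 of 3709 unbound genes with so close a neighbour followed a bound gene.

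The replicates gave like values at these peaks. All 35 peaks had an overlapping peak in both replicates, as had all 2059 peaks of all bound genes. The IDR list keeps peaks that are reproducible, so the choice of peaks favours this overlap and the agreement below. The log2 ratio of replicate 2 to replicate 1 had a median of 0.24 and an SD of 0.51 across the 35 peaks, with a range of -0.50 at zen-4 to 1.88 at air-1. Over the peaks of all bound genes the median was 0.27 and the SD 0.55. Spearman's rank correlation between the replicates was 0.894 across the 35 peaks, against 0.901 across the 2059 peaks of all bound genes. These are correlations across peaks of the same 2 libraries and not across independent samples. In lists as long as the IDR list, replicate 1 alone bound 34 of the 57 genes against 13% of all genes, and replicate 2 alone bound 37 against 13.3%. The additional genes in replicate 2 were cyb-1 and cdk-2.

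**Figure D5:**
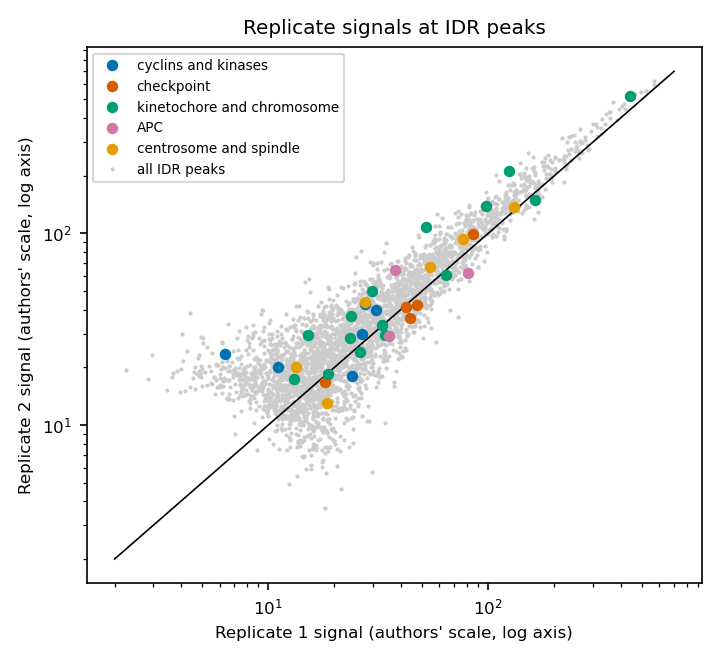
Signal in replicate 1 (x axis) against replicate 2 (y axis) at the IDR peaks, both on log scales in the authors' units, with the 35 peaks of cell division genes coloured by group, all IDR peaks in grey and a line of equal signal. The coloured points lie along the line within the grey cloud, and air-1 lies farthest from it, at 6.38 and 23.4.

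Weaker peaks were found at the unbound cell division genes about as often as at all unbound genes. In the pooled list of 30000 peaks and background entries, 42 of the 57 genes (73.7%) had an entry in the window, against 36.8% of all genes. Of the 22 genes without an IDR summit, 7 had such an entry (31.8%), against 27% of all unbound genes. They were rod-1 (signal 16), cdk-2 (15.3), cki-1 (10.7), emb-30 (6.37), cya-1 (5.83), spd-1 (4.92) and cyd-1 (3.66). The lowest signal of the pooled list was 3.29. No peak of any list lay in the windows of cye-1, cyb-2.1, cdc-25.2, lin-23, zwl-1, mat-2, mat-3, apc-11 and sas-4.

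The motifs marked in the sequences above were counted in all 35 windows of 101 bases. GCGCGC was found in 8 of the 35 (22.9%), against 12% of 2098 such windows at all promoter summits and 10.1% of 3331 at all IDR summits. The CHR element TTTGAA, which the DREAM subunit LIN-54 can bind, was found in 11 (31.4%), against 22.4% and 18.9%. CGCGAA was found in 5 (14.3%), against 9.82% and 8.59%. GAGAGA was found in 5 (14.3%), against 20.7% and 26.9%. The GC box and GGCGGGA were found in 1 window each, that of mdf-1 (2.86%), against 5.62% and 2.62% of promoter summits. GCGCGC stood at cki-2, plk-1, him-10, ska-3, hcp-6, smc-4, bir-1 and sas-6. The CHR element stood at cdk-1, cki-2, bub-1, hcp-4, knl-2, knl-1, knl-3, ndc-80, hcp-6, spd-2 and cyk-4. These shares are descriptions without a test, the 35 windows are among the 2098, and a match of letters is not a binding site.

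Other genes of the same pathways were also bound more often than genes at large. A list of 79 was made from general knowledge with earlier results of these data known, and 76 of its genes were matched. Of these 40 (52.6%, interval 40.8 to 64.2%) were bound, against 13.4% of all genes. By group, 4 of 5 further checkpoint genes (80%), 18 of 23 kinetochore and chromosome genes (78.3%) and 6 of 13 cyclin and kinase genes (46.2%) were bound. Among the rest, 10 of 28 centrosome and spindle genes (35.7%) and 2 of 7 APC genes (28.6%) were bound. The highest signal was 568 at kbp-4, which encodes a partner of NDC-80, at a peak shared with rab-18 and nearer to it. The securin gene ify-1 followed with 464, shared with rpl-22, and then cdk-7 with 412, the gene for a kinase that activates CDKs. Next were the topoisomerase gene top-2 with 307, at a peak nearer to npp-3, and kbp-3 with 197, which encodes another partner of NDC-80. The separase gene sep-1 had 163, at a peak nearer to nefr-1.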

How the data were processed

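LIN-15B ChIP-seq was measured in 2 biological replicates. Per the deposited text records, the authors made a list of peaks and background from each replicate's alignment and from both together, each with 1 further input that the records do not describe, and a list thresholded by IDR. The labels name a possible control. The ce11 lists were used. Aligner, peak caller, threshold: not given in the sources used here. Each list gives a signal. The deposited signal of each peak is on a scale that is not stated. The deposited −log10 q-value stood at 3.96 for all 3331 IDR peaks and ranked nothing. Of those peaks 64.6% are 310 bp wide, so their summits are interval midpoints. Replicate 1 had 24760 entries and replicate 2 had 27552. Read depth is unknown; the number of genes limits the precision. The size range was 150 to 350, per the labels.

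Genes and 5' ends came from Ensembl release 115 (WBcel235). Positions are 1-based and negative upstream. A replicate's signal at a peak is that of its highest overlapping peak. The next gene upstream is the nearest protein-coding gene. Intervals are exact Clopper-Pearson at 95%, and a count of 0 allows 3 counts of the total. No p-values were computed. The members, groups and lists were chosen with earlier results of these data known. Every member is named. Further pathway genes are the 6 with the highest signal, the condensin genes and the KMN genes. Other genes are named for sharing or neighbouring a member's peak. Alternatives were other windows, peak lists and assignments of summits. The code was tested on simulated data. Values were computed with scipy 1.17.1 and numpy 2.4.6 in Python 3.11.15 and drawn with matplotlib 3.10.9.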

Additional observations from a re-analysis of the deposited data

How the results depend on the processing

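Of 79 values recomputed under alternatives, 68 stayed within 1.5 times the reported count or level, or within its interval for motif shares. With 200 bp upstream, 3 of 7 checkpoint, 1 of 8 APC and 23 of 76 further pathway genes were bound. Of all genes, 7.59% were bound. With 1000 bp upstream the cyclins and kinases had 10 of 18 bound and the centrosome and spindle genes 9 of 9, against 16.2% of all genes. The count of 9, against 6 in the main window, lies at the limit of 1.5 times. In the 1665 IDR peaks with the highest signal the cyclins and kinases had 3 of 18, and the further pathway genes 23 of 76. The share of all genes there was 8.53%. In all pooled peaks the cyclins and kinases had 10 of 18, against 36.8% of all genes. With summits given to the nearest 5' end the APC had 1 of 8, against 10.3% of all genes. With 100 bp to each side of the summit the CHR element was found in 60.0% of windows, against 42.7% of promoter summits, and GCGCGC in 40.0%, against 15.5%. The GC box and GGCGGGA were each found in 5.71%, against 9.01% and 3.77%. Leaving out a replicate gave 34 to 37 bound genes of 57, against 13 to 13.3% of all genes. It gave 5 to 8 of 18 cyclins and kinases and 36 to 40 of 76 further pathway genes. The median signal was then 33.5 to 40.0, on the replicates' own scale. The cause of these shifts was not tested. No paired analysis was possible because there is only 1 group. The lists hold no read counts, so depth is unknown and an unbound gene is one with no summit in these lists. The ce10 lists were not used.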

Other observations

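GC content within 50 bp of the summit was 46.5% ± 5.71 (SD across 35 windows) at the cell division genes, against 46.4% ± 7.15 across 2098 promoter summits and 47% ± 7.3 across 3331 IDR summits. The lowest was 30.7% and the highest 57.4% among the 35. Bound cell division genes were found on every chromosome. They numbered 9 of 16 on chromosome I, 7 of 12 on II, 8 of 13 on III, 5 of 8 on IV, 5 of 7 on V and 1 of 1 on X. All genes of these chromosomes were bound at 21%, 12.5%, 21.9%, 13.8%, 8.29% and 7.36%, in the same order.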
